A study of Homo sapiens with 6 samples.

Results

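The genes of MHC class I and its peptide loading machinery were examined in RNA-seq libraries of Hep-G2 cells, a human line derived from a liver tumour. The 9 genes taken were the heavy chains HLA-B, HLA-C, HLA-E and HLA-F, the light chain B2M, the transporter subunits TAP1 and TAP2, the editor TAPBP and the trimming peptidase ERAP1. They were found by gene name among 58735 genes of the expression table. The 3 sh-NC libraries, with the genotype label WT, came from cells given a control short hairpin RNA, and the 3 sh-CLGN libraries, with the genotype label CLGN knock down, from cells given a hairpin against CLGN. CLGN encodes calmegin, a lectin chaperone of the endoplasmic reticulum (ER) related to calnexin. Per the study's methods, both hairpins were delivered by lentivirus and cells were selected with puromycin. Each group held 1 hairpin sequence, so an effect of the hairpin itself and of the loss of CLGN cannot be told apart. All 6 libraries carried the same batch label.

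In nearly all nucleated cells, a class I molecule is a membrane-bound heavy chain paired with the soluble light chain β2-microglobulin and a short peptide. Proteasomes make the peptides, the TAP transporter carries them into the ER, ERAP1 shortens them, and tapasin together with the lectin chaperones calnexin and calreticulin and the oxidoreductase ERp57 holds the empty molecule until a fitting peptide is bound. The finished molecule goes to the cell surface, where cytotoxic T cells and natural killer cells read it. Many of the genes share promoter elements bound by interferon regulatory factors, by NF-kB and by the complex that the coactivator NLRC5 joins. Hepatocytes are known for low class I levels outside inflammation.

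Values are given as FPKM, which divides the reads of a gene by its length and by the library size, so levels can be set beside each other between genes. Recovered reads summed to 14955816 to 16244639 per library. Between 23578 and 23793 genes had a read in the sh-NC libraries and between 26814 and 27006 in the sh-CLGN libraries, and mitochondrial genes took 3.25 to 4.02% and 5.49 to 5.80% of reads. CLGN itself was at 23.8 ± 2.54 FPKM in sh-NC and 8.98 ± 0.453 FPKM in sh-CLGN (SD, n = 3), a log2 fold change of -1.31 on the log2(FPKM + 1) scale (limma adjusted p = 8.35e-06). The 10 hepatocyte markers were all detected, with summed levels of 7411 to 7622 FPKM in sh-NC and 7621 to 8096 FPKM in sh-CLGN. Single markers moved in both directions, with 4 called higher, 5 lower and 1 not called. Over all tested genes, 26.7% were called higher and 39.0% lower. The split of the markers was 5 higher and 3 lower with read totals and 5 and 2 after quantile normalization. Lower in sh-CLGN were ALB (albumin), at 2007 ± 70.9 and 1076 ± 27.7 FPKM (log2 fold change -0.90), and TF (transferrin), at 181 ± 3.32 and 58.4 ± 0.483 FPKM (-1.62). Higher were FGB (0.72), AHSG (0.46) and TTR (0.58), which like the former encode secreted plasma proteins, and AFP (0.50), which was not called without the filter. The remaining markers called lower were APOB (-0.32), SERPINA1 (-0.33) and HNF4A (-0.30), none of them called after quantile normalization. Of 7 leukocyte markers, CD3E, CD79A, NKG7 and CD68 had at most 3 reads in every library, and the sum of all 7 was 1.368 to 1.602 FPKM in sh-NC and 0.665 to 0.949 FPKM in sh-CLGN, with CD14 lower (-0.62). CD14, at 1.35 ± 0.147 and 0.524 ± 0.127 FPKM, passed the filter of 1 FPKM in 3 libraries through sh-NC only. Of 8 fibroblast markers 3 had at most 3 reads in every library, namely DCN, THY1 and FAP, but the sum rose from between 6.70 and 8.19 FPKM to between 47.4 and 49.0 FPKM, most of it COL1A2 (2.94). The collagens COL1A1 (1.69) and COL3A1 (1.08), the matrix protein LUM (1.08) and the receptor PDGFRB (0.27) were called higher too, PDGFRB not in 7 of the 14 alternatives. In sh-NC, COL1A1, COL3A1 and LUM were at 0.327, 0.265 and 0.304 FPKM, so they passed the filter through sh-CLGN only. Their entry into the fit thus depended on their being higher there. The sum of 5 endothelial markers was 3.36 to 3.67 FPKM in sh-NC and 2.38 to 2.65 FPKM in sh-CLGN, and VWF, KDR and TEK had at most 3 reads in every library. PECAM1 was lower (-0.28), but not called as TPM or with read totals, and CDH5 did not pass the filter. The part of these differences in the results below was not tested.

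Among the members with levels high enough to be tested, the light chain moved against the others. Of the 9 members, 6 had at least 1 FPKM in at least 3 libraries and entered the fit over 13074 genes, which was limma on log2(FPKM + 1). Of these 6, B2M rose and 5 fell, namely HLA-C, HLA-E, TAP2, TAPBP and ERAP1, at an adjusted p of at most 0.05. Knockdown libraries differed widely from controls, so these counts stand against a high background. Over all genes tested, 26.7% were called higher and 39.0% lower. In the same 6 members the 3 libraries of each group did not overlap, higher for B2M and lower for the other 5, and over all genes 28.7% and 41.5% did not overlap in these directions. No member passed the further threshold of a log2 fold change of 1 in either direction, which 6.28% of all genes passed, but HLA-C did with a pseudocount of 0.1 (-1.20), with voom (-1.23) and as TPM (-1.01). The median log2 fold change was -0.31 over the 6 members and -0.077 over all genes tested. HLA-B, HLA-F and TAP1 did not pass the filter. The labels do not say whether the 3 libraries of a group came from separate cultures, so p-values measure the spread between these libraries only. Levels are of RNA from whole cultures, in which fewer cells with a transcript and less of it per cell cannot be told apart.

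**Figure D1:**
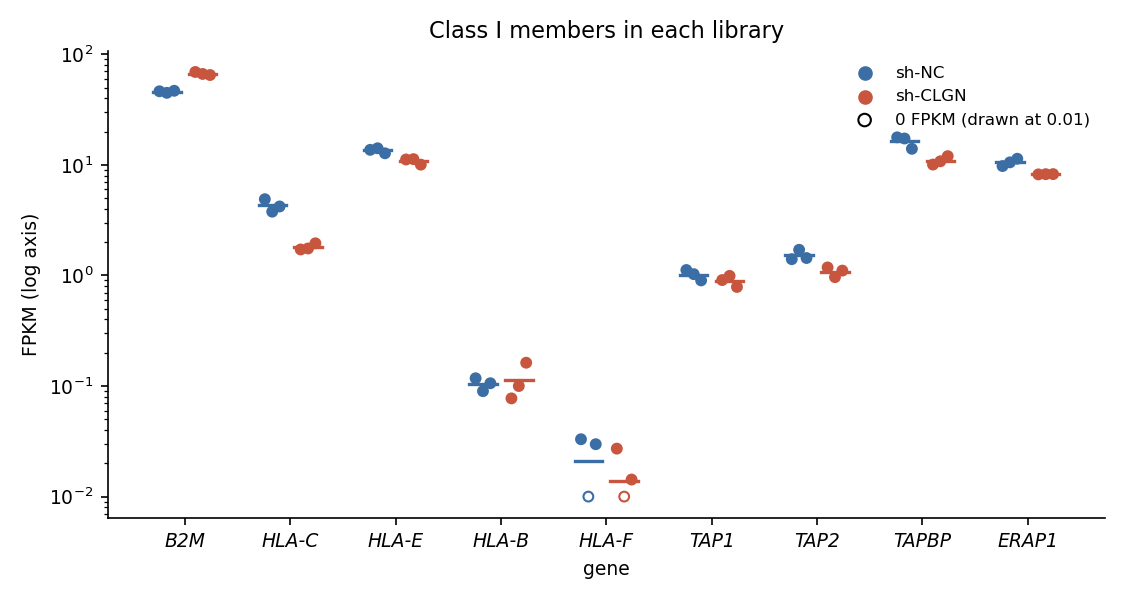
FPKM on a log axis of the 9 class I genes in each library, with blue points for the 3 sh-NC libraries, red points for the 3 sh-CLGN libraries, lines at the group means and open points for 0 FPKM drawn at 0.01. B2M lies highest and is higher in sh-CLGN, HLA-C, HLA-E, TAP2, TAPBP and ERAP1 are lower without overlap, and HLA-B, HLA-F and TAP1 overlap.

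B2M was the most abundant of the 9 in both groups. In sh-NC it was followed by TAPBP, HLA-E, ERAP1, HLA-C, TAP2, TAP1, HLA-B and HLA-F, and the ranges of TAPBP and HLA-E overlapped. The order of the means was the same in sh-CLGN, where the ranges of TAPBP and HLA-E and those of TAP2 and TAP1 overlapped. The authors' gene length counts every annotated exon base of a gene, which for B2M is 6079 bases against a median of 732 bases over its 15 annotated transcripts. For HLA-C these lengths are 2507 and 1176 bases. Levels between genes therefore depend on that choice of length, while differences between libraries of the same gene do not.

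HLA-C, a classical heavy chain that presents peptides to T cells and is read by inhibitory receptors of natural killer cells, lies on the minus strand at chr6:31268749-31272130 (GRCh38, ENSG00000204525). The sh-NC libraries held 4.89, 3.77 and 4.202 FPKM, from 171, 138 and 163 reads. The sh-CLGN libraries held 1.72, 1.75 and 1.95 FPKM, from 73, 72 and 79 reads. Every knockdown library was below every control library, and the mean level was 42.1% of that in sh-NC. The means were 4.29 ± 0.564 and 1.81 ± 0.127 FPKM (SD, n = 3), a log2 fold change of -0.91 (SE 0.092, 95% confidence interval -1.12 to -0.70, limma adjusted p = 7.82e-05). By its mean level HLA-C stood above 40.2% of the tested genes in sh-NC and above 16.1% in sh-CLGN. Among the 5 members that fell it had the largest change, in the deposited scaling and in each of the 14 alternatives.

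HLA-E, a non-classical heavy chain that displays leader peptides of other class I chains to the receptor CD94/NKG2A, lies on the plus strand at chr6:30489467-30494205 (ENSG00000204592). Its sh-NC levels were 13.66, 14.11 and 12.71 FPKM and its sh-CLGN levels 11.17, 11.26 and 10.03 FPKM. The groups did not overlap, but the step between them was small, from 13.5 ± 0.717 to 10.8 ± 0.683 FPKM (SD, n = 3). The log2 fold change was -0.29 (SE 0.064, limma adjusted p = 0.00437). HLA-E did not pass the threshold when values were rescaled by read totals (-0.11), as TPM (-0.19), by quantiles (-0.13) or with the smooth trend of values on exon GC content removed from each library (-0.025, limma adjusted p = 0.754).

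HLA-B, a further classical heavy chain (ENSG00000234745, minus strand), had few counted reads in these libraries. Control libraries gave 5, 4 and 5 reads and knockdown libraries 4, 5 and 8 reads, or 0.104 ± 0.0139 and 0.113 ± 0.0441 FPKM (SD, n = 3). The groups overlapped, and in a fit without the filter the log2 fold change was 0.011 (95% confidence interval -0.090 to 0.11, limma adjusted p = 0.870). The annotation gives the gene as chr6:31269491-31357188 because 1 of its transcripts runs into HLA-C, with which it shares 35 exon bases, whereas the other 9 lie within chr6:31353872-31357188. HLA-F, a non-classical heavy chain at chr6:29722775-29738528 on the plus strand (ENSG00000204642), gave 2, 0 and 2 reads in the control libraries and 2, 0 and 1 in the knockdown libraries. These counts do not exceed the floor of 3 reads taken here, so no fold is given.

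Heavy chain genes resemble each other. Of the 50-base windows in the annotated transcripts of HLA-C, 5.38% also occurred in another annotated gene, against 4.34% for HLA-E, 2.72% for HLA-B and 0 for B2M. With windows of 100 bases the shares were 0.126% for HLA-C, 0.491% for HLA-E and 0 for HLA-B. Heavy chain genes also vary strongly between people, and reads of Hep-G2 alleles that differ from the reference may not have been counted for the right gene. Genes on the opposite strand overlap 17.8% of the exon bases of HLA-B and 28.5% of those of HLA-F. Reads on these bases may have been left out if counting ignored the strand. The read length and how reads with several matches were counted are not given in the sources used here, so the levels of HLA-B, HLA-C, HLA-E and HLA-F are uncertain.

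B2M encodes the light chain that pairs with class I heavy chains, and lies on the plus strand at chr15:44711487-44718877 (ENSG00000166710), away from the MHC. It held 46.2, 44.8 and 46.7 FPKM in sh-NC, from 3922, 3973 and 4394 reads. In sh-CLGN it held 69.1, 66.3 and 64.8 FPKM, from 7125, 6609 and 6364 reads. All 3 knockdown libraries were above all controls, and the mean rose 1.45-fold, from 45.9 ± 1.02 to 66.7 ± 2.16 FPKM (SD, n = 3). The log2 fold change was 0.53 (SE 0.046, 95% confidence interval 0.42 to 0.64, limma adjusted p = 3.80e-05). After quantile normalization it was larger, at 0.81, and with the trend on GC content removed it was smaller, at 0.40. B2M stood above 92.2% of tested genes by level in sh-NC and above 96.2% in sh-CLGN.

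The opposite moves of B2M and of the heavy chains HLA-C and HLA-E changed the ratio of heavy to light chain RNA. Summed over HLA-B, HLA-C, HLA-E and HLA-F, heavy chain RNA lay between 17.05 and 18.70 FPKM in sh-NC and between 12.16 and 13.11 FPKM in sh-CLGN, with HLA-E supplying most of it. The sum fell from 17.9 ± 0.829 to 12.8 ± 0.517 FPKM (SD, n = 3), a log2 difference of -0.49 without overlap. Divided by B2M, it was 0.404, 0.402 and 0.365 in the controls against 0.188, 0.198 and 0.188 in the knockdown. The mean ratio was 0.390 ± 0.0220 against 0.191 ± 0.00567 (SD, n = 3), a log2 difference of -1.03. For the sum and for the ratio the two-sided exact permutation test gave p = 0.1, the smallest value that 3 libraries against 3 allow. A ratio within a library shows unequal change and is not moved by library size, but the trend on GC content bears on it, because exons of HLA-C and HLA-E are 61.6% and 61.5% GC and those of B2M 41.2%. With that trend removed the log2 difference was -0.56 for the ratio and -0.16 for the sum.

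**Figure D2:**
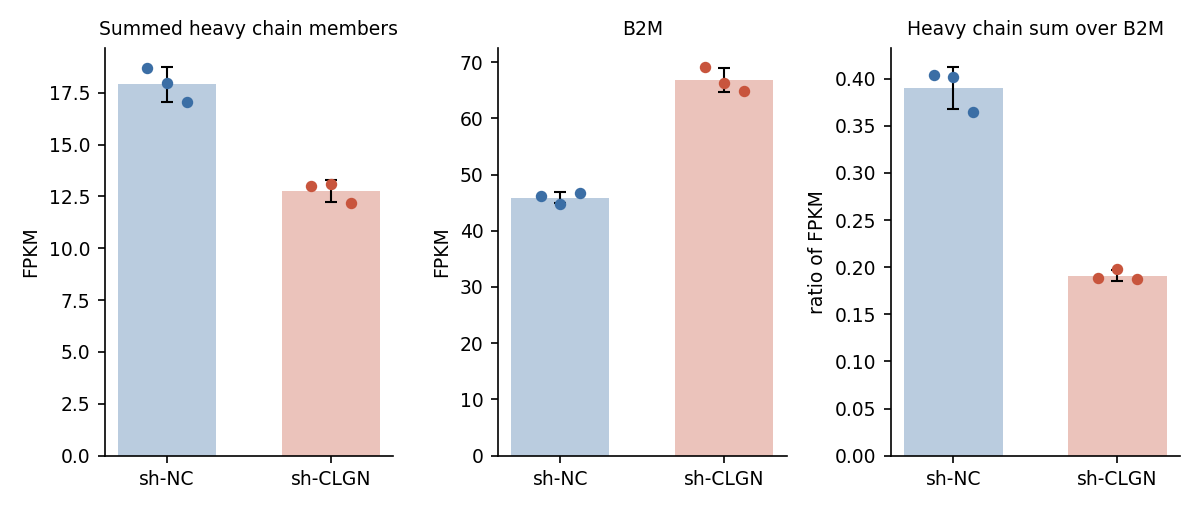
Summed FPKM of the 4 heavy chain genes, FPKM of B2M and their ratio in sh-NC (blue) and sh-CLGN (red), with bars at the mean, error bars of 1 SD and a point per library (n = 3). In all 3 panels the points of the groups do not overlap, and the ratio has a mean of 0.390 in sh-NC and 0.191 in sh-CLGN.

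The promoters of these genes were read for the elements named above, because the members moved in different directions. Exact matches on either strand were searched in RefSeq windows of 300 bases around each start, for the interferon-stimulated response element core TTTCNNTTTC, the NF-kB core GGGNNTTNCC, the X2 or CRE core TGACG and the Y box core CCAAT. Over 35116 windows of that length, 3.57% held the first, 5.68% the second, 24.6% the third and 34.6% the fourth. Windows were found for 8 of the 9 members. The stretch from 200 to 41 bases upstream of the start is given for HLA-B, HLA-C and B2M, the class I chains with the most contrasting values, 5′ to 3′ on the gene's strand with matches in capitals. It lies at chr6:31357220-31357379 (minus strand), chr6:31272133-31272292 (minus strand) and chr15:44711317-44711476 (plus strand) on GRCh38.p14.
HLA-B: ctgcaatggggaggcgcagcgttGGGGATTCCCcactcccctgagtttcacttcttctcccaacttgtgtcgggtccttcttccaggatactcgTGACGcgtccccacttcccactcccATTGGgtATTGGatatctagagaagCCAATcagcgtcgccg
HLA-C: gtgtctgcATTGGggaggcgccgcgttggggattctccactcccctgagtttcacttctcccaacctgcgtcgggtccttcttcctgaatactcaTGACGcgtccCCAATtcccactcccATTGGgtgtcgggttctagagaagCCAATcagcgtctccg
B2M: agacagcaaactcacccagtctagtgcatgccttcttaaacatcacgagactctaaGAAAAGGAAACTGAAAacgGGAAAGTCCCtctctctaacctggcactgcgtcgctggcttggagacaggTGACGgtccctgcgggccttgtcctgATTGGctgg

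The windows of HLA-B and HLA-C were 88.5% identical when aligned, and those of HLA-C and B2M 47.0%. HLA-B held an NF-kB core 177 bases upstream, an X2 core at 106 and Y box cores at 81, 74 and 56 bases. HLA-C held the X2 core at 105 bases and Y box cores at 192, 95, 80 and 56 bases, with no match to the NF-kB or interferon core as spelled here. In B2M a pair of overlapping interferon cores at 144 and 138 bases was followed by an NF-kB core at 125, an X2 core at 75 and a Y box core at 49 bases. Of these 3 genes, B2M and HLA-B matched the NF-kB core and HLA-C did not. A match is a run of letters, not a shown binding site, and a missing match says nothing about the factor.

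Interferon cores were also matched in HLA-F, TAP1, TAP2, TAPBP and ERAP1. The 30 bases around these matches are shown for the first 4, in the same manner, as the places where members that fell and the overlapping genes TAP1 and HLA-F carry the same element as B2M. They lie at chr6:29723276-29723305 (plus strand), chr6:32853811-32853840, chr6:32838770-32838799 and chr6:33314071-33314100 (minus strand).
HLA-F: agTTTCTCTTTCtctcccaacccgtgtcag
TAP1: gcTTTCGATTTCGCTTTCccctaaatggct
TAP2: gcGAAAGCGAAAgctgcccgagcccTGACG
TAPBP: agGAAAGTGAAAGTGAAAggaggaagagga

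TAP1 and TAPBP each held a pair of overlapping interferon cores, at 134 and 128 bases upstream in TAP1 and at 20 and 14 bases in TAPBP, and an NF-kB core at 72 and 56 bases. TAP2 held an interferon core at 58 bases and an X2 core at 35 bases. ERAP1 held an interferon core 2 bases after the start, an NF-kB core 73 bases before it and a Y box core at 154 bases. An interferon core was thus present in 6 of the 8 members with a window and an NF-kB core in 5, in genes that rose, fell and overlapped alike. A further window each for TAP1 and ERAP1, at another start, had no match.

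**Figure D3:**
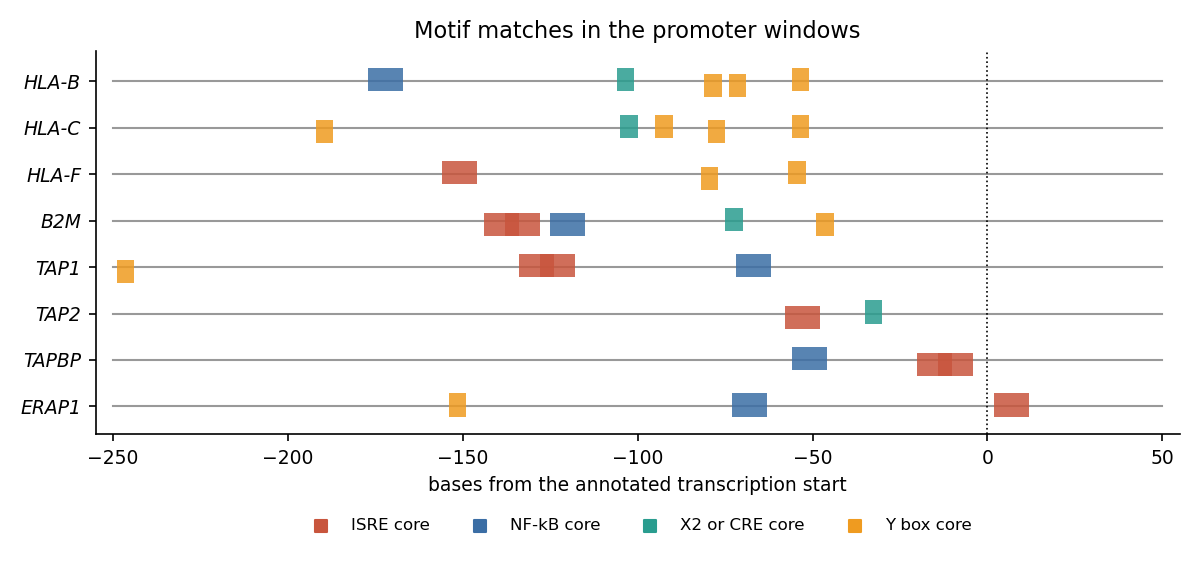
Positions of exact motif matches along the promoter windows of 8 class I genes, in bases from the annotated start (dotted line at 0), with red for the interferon core, blue for NF-kB, green for X2 or CRE and yellow for the Y box. B2M, TAP1 and TAPBP carry overlapping interferon cores, whereas HLA-B and HLA-C carry X2 and Y box cores only, plus an NF-kB core in HLA-B.

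The transporter subunits were expressed at low levels. TAP1, which forms the peptide channel of the ER membrane with TAP2, lies on the minus strand at chr6:32845209-32853978 (ENSG00000168394). It held 1.12, 1.03 and 0.901 FPKM in sh-NC and 0.908, 0.990 and 0.786 FPKM in sh-CLGN, from 61 to 78 reads. The groups overlapped, with means of 1.02 ± 0.109 and 0.895 ± 0.103 FPKM (SD, n = 3). In a fit without the filter the log2 fold change of TAP1 was -0.089 (95% confidence interval -0.33 to 0.15, limma adjusted p = 0.532), an interval that holds both no change and a fall as large as that of TAP2.

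TAP2 lies nearby on the same strand at chr6:32821833-32838780 (ENSG00000204267). Its levels were 1.40, 1.70 and 1.44 FPKM in the controls against 1.18, 0.964 and 1.10 FPKM in the knockdown. The groups did not overlap, with means of 1.51 ± 0.166 and 1.08 ± 0.110 FPKM (SD, n = 3). The log2 fold change was -0.27 (SE 0.092, limma adjusted p = 0.0316). This call did not hold without the filter (limma adjusted p = 0.0858), with scaling by read totals (-0.16), as TPM (-0.29), with the trend on GC content removed (-0.080), with the replicate number as a block (adjusted p = 0.0744), or without sh-NC library 2, sh-CLGN library 2 or sh-CLGN library 3, where it ranged from -0.30 to -0.22 over all 6 leave-one-out fits. Of the exon bases of TAP2, 32.3% are shared on the same strand with AL669918.1, a gene with 0 reads in all 6 libraries. Reads on the shared bases may have been left out of the count for both genes, so the level of TAP2 and its ratio to TAP1 are uncertain. The ratio of TAP1 to TAP2 was 0.798, 0.602 and 0.627 in the controls against 0.769, 1.03 and 0.712 in the knockdown. These ranges overlapped (log2 difference 0.30, two-sided exact permutation p = 0.3).

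TAPBP encodes tapasin, which ties the empty class I molecule to TAP and favours tightly binding peptides. It lies on the minus strand at chr6:33299694-33314387 (ENSG00000231925). The sh-NC levels of TAPBP were 17.72, 17.30 and 13.96 FPKM and the sh-CLGN levels 10.05, 10.76 and 11.98 FPKM. The third control library was the lowest of its group and still above every knockdown library. Group means were 16.3 ± 2.06 and 10.9 ± 0.976 FPKM (SD, n = 3), a log2 fold change of -0.53 (SE 0.099, 95% confidence interval -0.76 to -0.31, limma adjusted p = 0.00185). Its exons are 62.1% GC, and with the trend on GC content removed the log2 fold change was smaller, at -0.26, and still called.

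ERAP1, the ER aminopeptidase that trims peptides to the length class I molecules hold, lies on the minus strand at chr5:96760810-96808100 (ENSG00000164307). It held 9.74, 10.5 and 11.3 FPKM in sh-NC and 8.19, 8.23 and 8.24 FPKM in sh-CLGN. The knockdown libraries lay within a narrow band below all controls, and the means were 10.5 ± 0.802 and 8.22 ± 0.0261 FPKM (SD, n = 3). The log2 fold change was -0.32 (SE 0.063, limma adjusted p = 0.00242), and with scaling by read totals it was -0.15 and not called (limma adjusted p = 0.0891). The ratio of ERAP1 to TAP1 ranged from 8.71 to 12.6 in sh-NC and from 8.31 to 10.5 in sh-CLGN, which overlapped (log2 difference -0.17, exact permutation p = 0.5).

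How the libraries were scaled bore on the members with small changes. By the recovered reads, each FPKM value had been divided by a library size of 0.933 to 0.953 times the read total in sh-NC and 1.07 to 1.08 times the read total in sh-CLGN. Scaling by read totals moved the median log2 fold change of all genes by 0.16, from -0.077 to 0.083, and TPM moved it by 0.11. The split of calls turned with it, from 3496 higher and 5102 lower in the deposited scaling to 4956 and 3421 with read totals and to 4285 and 3923 as TPM. Taken relative to the all-gene median, B2M was at 0.61 in the deposited scaling, 0.64 with read totals and 0.63 as TPM. HLA-C was likewise at -0.83, -0.85 and -1.04, TAPBP at -0.46, -0.44 and -0.47, ERAP1 at -0.24, -0.23 and -0.25, TAP2 at -0.19, -0.25 and -0.32, and HLA-E at -0.22, -0.20 and -0.22. Directions were thus the same in these scalings for all 6 tested members, and B2M, HLA-C and TAPBP kept their calls in each of the 14 alternatives. With read totals 1 member was called higher and 2 lower.

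**Figure D4:**
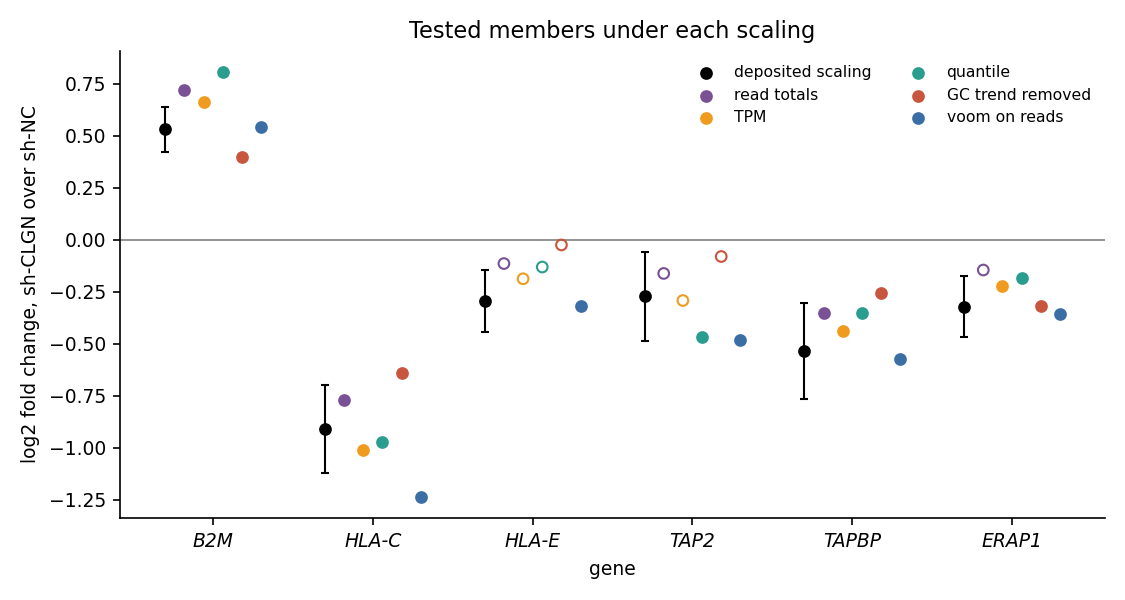
Log2 fold change of the 6 tested class I genes in sh-CLGN over sh-NC under the deposited scaling (black, with the 95% confidence interval) and 5 alternatives, filled where the adjusted p was at most 0.05 and open where not. B2M stays above 0 and HLA-C and TAPBP below 0 throughout, while HLA-E, TAP2 and ERAP1 have open points.

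The wider pathway was described from lists of its genes. Of 14 further genes of peptide loading and ER trimming, 13 were tested, of which 3 rose, 7 fell and 3 were not called, against 26.7% higher and 39.0% lower over all tested genes, with a median log2 fold change of -0.32. The split was 4 higher and 6 lower with read totals (median -0.15) and 4 and 5 after quantile normalization (median -0.11). The list held abundant chaperones that fell and a glucosidase that rose. PDIA3, which encodes the tapasin partner ERp57, fell from 149 ± 4.05 to 92.6 ± 4.35 FPKM (SD, n = 3), a log2 fold change of -0.68 (limma adjusted p = 1.97e-05). The lectin chaperone CANX (-0.53), the glucosyltransferase UGGT1 (-0.53), which returns unfinished molecules to the lectin chaperones, and the lectin chaperone CALR (-0.39) fell too, although CALR was not called after quantile normalization (-0.0050). GANAB, the catalytic chain of the glucosidase that makes the substrate of these chaperones, rose from 136 ± 5.69 to 193 ± 4.89 FPKM (SD, n = 3), a log2 fold change of 0.50 (limma adjusted p = 6.92e-05).

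Proteasomes supply the peptides. PSMB5, PSMB6 and PSMB7, the standard catalytic subunits, all fell, with log2 fold changes of -0.51, -0.37 and -0.38, though after quantile normalization PSMB6 (-0.036) and PSMB7 (-0.049) were not called. Over all tested genes, 26.7% were called higher and 39.0% lower. Against the same shares, 3 of 5 immunoproteasome and activator genes were tested and 1 fell. This was PSME1, a subunit of the proteasome activator PA28, which fell from 56.3 ± 4.44 to 22.8 ± 1.17 FPKM (SD, n = 3), a log2 fold change of -1.27 (limma adjusted p = 5.19e-06). Its partner subunit PSME2 was at 25.7 ± 2.49 and 26.3 ± 1.09 FPKM (log2 fold change 0.032, limma adjusted p = 0.715), and PSMB10 had a log2 fold change of -0.099 (limma adjusted p = 0.249). PSME2 was called higher with read totals (0.22), with the trend on GC content removed (0.19) and after quantile normalization (0.30), where PSMB10 was called lower (-0.19). The inducible subunits PSMB8 and PSMB9, neighbours of TAP1 and TAP2 in the MHC, did not pass the filter. Their levels were 1.05 ± 0.208 and 0.444 ± 0.138 FPKM for PSMB8 and 0.865 ± 0.208 and 0.510 ± 0.155 FPKM for PSMB9 in sh-NC and sh-CLGN (SD, n = 3), lower in sh-CLGN without overlap. Among genes below the filter with at least 10 reads in all, 5.87% were lower in this way. In a fit without the filter PSMB8 was called lower (-0.51, limma adjusted p = 0.0294) and PSMB9 was not called (-0.30, limma adjusted p = 0.152).

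Of 21 transcription factors known to act on class I genes, 18 were tested, of which 3 rose, 8 fell and 7 were not called (median -0.17), beside 26.7% and 39.0% of all tested genes. With read totals 4 were called higher and 6 lower (median 0.0088), and after quantile normalization 4 and 7 (median -0.092). NFKB1, which encodes the p50 subunit of NF-kB, fell from 18.4 ± 0.766 to 9.75 ± 0.197 FPKM (SD, n = 3), a log2 fold change of -0.85 (limma adjusted p = 7.52e-06). RELB (-0.85), the interferon regulatory factor IRF1 (-0.52), the RFX complex subunit RFXANK (-0.81) and the Y box binding subunit NFYC (-0.58) fell as well. Of 10 interferon receptor and signalling genes, 9 were tested, and 3 rose, 3 fell and 3 were not called (median -0.052), beside the same shares. Their split was 4 and 3 with read totals (median 0.12) and 4 and 4 after quantile normalization (median 0.016). The kinase JAK1 fell from 27.8 ± 1.67 to 12.1 ± 0.449 FPKM (SD, n = 3), a log2 fold change of -1.13 (limma adjusted p = 4.38e-06), and SOCS3, a feedback inhibitor, had a log2 fold change of -1.02. The receptor chains IFNGR1 (0.34) and IFNAR1 (0.36) rose and IFNGR2 (-0.40) fell. IFNAR2, a further receptor chain, did not pass the filter, and in a fit without the filter it was called lower (-0.47, limma adjusted p = 0.0275).

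Of 16 genes that remove or repress class I molecules, 14 were tested, of which 4 rose, 6 fell and 4 were not called (median -0.18), where 26.7% of all tested genes rose and 39.0% fell. With read totals the split was 4 and 5 (median -0.0082), and after quantile normalization 4 and 4 (median -0.044). Lower were the transcriptional repressor IRF2BP2 (-0.88), the histone methyltransferase EZH2 (-0.78) and the ubiquitin ligases MARCHF8 (-0.72) and WWP2 (-0.51), and TXNDC11, an ER thioredoxin domain protein, was higher (0.46). Of 12 class I-like genes, 4 were tested and 3 fell, beside the same shares of all tested genes. The stress ligand ULBP1, read by the activating receptor NKG2D of natural killer cells, fell from 3.82 ± 0.348 to 0.459 ± 0.158 FPKM (SD, n = 3), a log2 fold change of -1.73 (limma adjusted p = 8.35e-06). ULBP1 passed the filter through sh-NC only, where it is high, and was still called in the fit without the filter (limma adjusted p = 0.000222). MICB, a ligand of the same receptor, had a log2 fold change of -0.61, HFE, which regulates iron uptake, one of -0.32, and the neonatal Fc receptor chain FCGRT, which also pairs with β2-microglobulin, one of -0.11 (limma adjusted p = 0.290). HFE was not called without the filter, with read totals, as TPM or with the trend on GC content removed, nor without sh-NC library 3 (-0.22), sh-CLGN library 1 (-0.28) or sh-CLGN library 2 (-0.34).

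**Figure D5:**
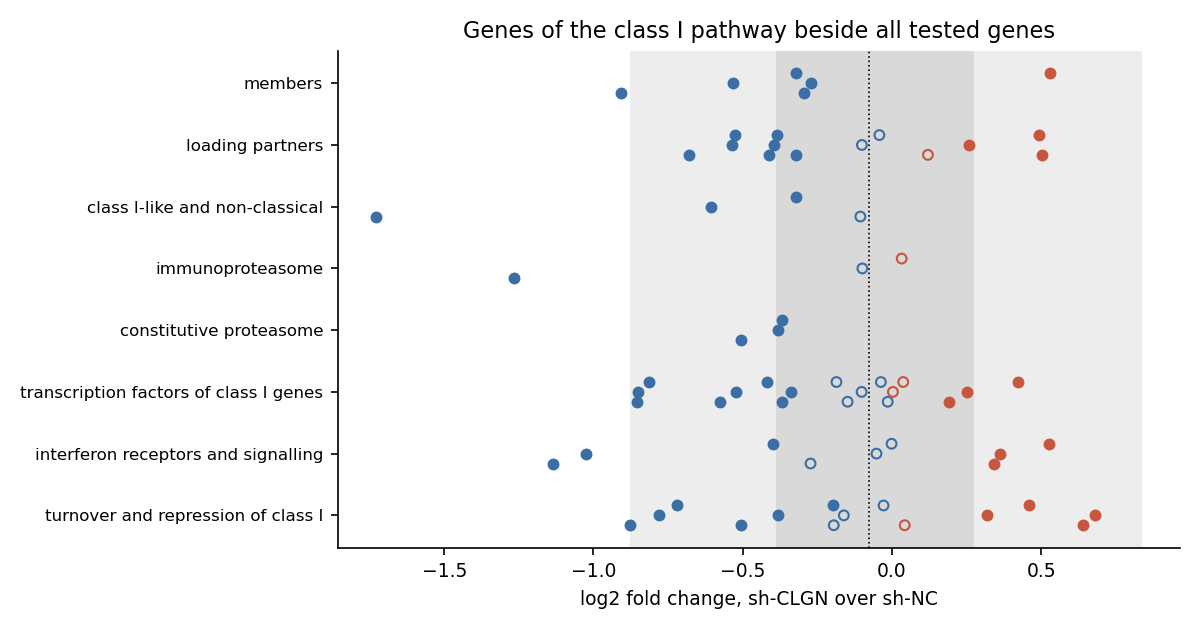
Log2 fold change in sh-CLGN over sh-NC of the tested genes of 8 class I lists, 1 point per gene, filled where the adjusted p was at most 0.05, with the median (dotted line), the middle 50% (dark grey) and the middle 90% (light grey) of all 13074 tested genes. Most lists hold points on both sides of 0, and the members form 1 point at 0.53 and 5 between -0.91 and -0.27.

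Of the 9 members 7 lie in the MHC on chromosome 6, and the genes between them were taken for comparison. From the start of HLA-F to the end of TAPBP (chr6:29722775-33314387), 81 genes other than members were tested, of which 15 (18.5%) rose, 37 (45.7%) fell and 29 were not called, against 26.7% and 39.0% over all tested genes, with a median log2 fold change of -0.16. This split depended on the scaling, with 23 higher and 30 lower by read totals, 18 and 31 as TPM, 20 and 30 after quantile normalization and 26 and 31 with the trend on GC content removed. The largest changes in the region were in ATF6B, an ER stress transcription factor (-1.69), IER3, an immediate early gene (-1.47), and HSD17B8, a steroid dehydrogenase (-1.17). All 3 exceeded the change of HLA-C.

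A direct match of the hairpin to the members was looked for in their annotated 3′ UTRs. None of the 9 members had TACCACA there, the run of the sh-CLGN target sequence that would pair with bases 2 to 8 of the hairpin's guide, and none had the run shifted by 1 base to either side. Coding sequences and the sh-NC hairpin were not searched, and the share of all genes without these runs was not counted. The absence therefore cannot be weighed, and an effect of the hairpin on the members was not tested.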

How the data were processed

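RNA-seq of 3 sh-NC and 3 sh-CLGN Hep-G2 libraries was analysed. The authors deposited 1 table of FPKM by gene and library, along with gene lengths, and the submitters' processing notes name HISAT2 2.0.5, featureCounts and GRCh38. The strandedness of counting and the read length are not given in the sources used here. All 58735 gene positions equalled GENCODE 29. Multiplied by gene length, the deposited FPKM values gave whole reads for 100% of values within a tolerance of 0.01, so reads per library are known. Counting error is the only error that the floor of 3 reads covers.

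Genes reaching 1 FPKM in 3 or more libraries were tested with limma 3.58.1 in R 4.3.3 on log2(FPKM + 1), with an intensity trend, all 6 libraries and no covariate, two-sided, with Benjamini-Hochberg adjustment over 13074 genes. Fold changes on this scale understate those of low genes. Sums and ratios were compared by exact permutation tests. The 14 alternatives were a pseudocount of 0.1, no filter, voom on recovered reads, scaling by read totals, TPM, quantile normalization, removal of the GC trend (lowess span 0.3), a replicate block and each library left out in turn. Members and lists were chosen with earlier results of these data known. All members, up to 5 tested genes of each list with the smallest adjusted p, all genes of lists of at most 5, and the 3 largest called changes of the MHC region are named, and any further gene was picked with its values in view. Promoter windows came from RefSeq (GRCh38.p14), and HLA-E was not matched. The table gives 3 ubiquitin ligases as dates, and these were matched by gene ID. A further leukocyte marker is not reported here.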

Additional observations from a re-analysis of the deposited data

Results flagged for a closer look

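A signal above the control level was searched for among list genes below the filter of the reported fit. It appeared in 3 genes of the class I pathway. Only genes higher in sh-CLGN without overlap were taken, so the direction of these 3 was set by the search. In the fit without the filter, the pathway genes PSMB8 (-0.51, limma adjusted p = 0.0294) and IFNAR2 (-0.47, limma adjusted p = 0.0275) were called lower. ERAP2, the ER aminopeptidase related to ERAP1, was at 0.0773, 0.102 and 0.139 FPKM in sh-NC and at 0.421, 0.534 and 0.601 FPKM in sh-CLGN, a mean of 0.519 FPKM in sh-CLGN from 53 to 72 reads a library. NLRC5, the coactivator of class I promoters, was counted at 5, 4 and 4 reads in the controls and at 18, 29 and 27 in the sh-CLGN libraries, where its mean was 0.121 FPKM. IRF9, the DNA-binding subunit of the interferon-activated complex ISGF3, was counted at 9, 19 and 13 reads in the controls and at 32, 26 and 35 in the sh-CLGN libraries, where its mean was 0.496 FPKM. All 3 were higher in each knockdown library than in each control library, and in the fit without the filter the log2 fold change was 0.46 for ERAP2 (limma adjusted p = 0.00493), 0.13 for NLRC5 (limma adjusted p = 0.0272) and 0.27 for IRF9, which was not called (limma adjusted p = 0.0685). Of 9013 genes below the filter with at least 10 reads in all, 27.3% were higher in sh-CLGN without overlap and 5.87% lower.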

How the results depend on the processing

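B2M (0.40 to 0.81), HLA-C (-1.23 to -0.64) and TAPBP (-0.64 to -0.26) kept direction and call in all 14. HLA-E was no longer called with read totals (-0.11), TPM (-0.19), quantile normalization (-0.13) and the GC trend removed (-0.025). TAP2 was not called without the filter (-0.27), with read totals (-0.16), TPM (-0.29), the GC trend removed (-0.080) or the replicate block (-0.27), and ranged from -0.30 to -0.22 with a library left out, not called without sh-NC library 2 or sh-CLGN library 2 or 3. ERAP1 was not called with read totals (-0.15). Of the 6 members called in the deposited scaling, 3 were called with read totals and 4 each as TPM and with the GC trend removed. The ratio of ERAP1 to TAP1 turned to 0.54 with quantile normalization. Genes past both thresholds numbered 821, against 1606 with a pseudocount of 0.1, 1722 with voom and 1426 as TPM. The fit with a pseudocount of 0.1 differed from the reported fit in that setting only, and the cause of the other shifts was not tested. Deviations of same-numbered libraries correlated at -0.018, -0.046 and -0.15, so the numbers do not pair the libraries, and the replicate block ended no call of a member other than TAP2. With 61 to 78 reads for TAP1 and at most 8 for HLA-B and HLA-F, depth limits what these genes can show.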

Other observations

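MHC class II genes were almost silent. Of 12, 8 had at most 3 reads in every library, among them HLA-DRA and HLA-DRB1. The exception was CD74, the invariant chain that guides class II molecules and also occurs apart from them, which rose from 0.882 ± 0.196 to 1.80 ± 0.208 FPKM (SD, n = 3), a log2 fold change of 0.58 (limma adjusted p = 0.00199). With a mean below 1 FPKM in sh-NC, CD74 passed the filter by its sh-CLGN libraries. CIITA, the class II coactivator, stayed between 9 and 17 reads a library. HLA-DMB, a peptide editor of class II, was at 0.372 ± 0.0398 FPKM in sh-NC and 0.0605 ± 0.0186 FPKM in sh-CLGN (SD, n = 3), below the filter, and without the filter its log2 fold change was -0.37 (limma adjusted p = 0.00262).

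MARCHF9, a membrane ubiquitin ligase known to remove class I molecules from the surface, lay outside the rule for naming genes, as did the class II genes other than CD74. It rose from 3.26 ± 0.355 to 5.83 ± 0.581 FPKM (SD, n = 3), a log2 fold change of 0.68 (limma adjusted p = 0.000311), while its relative MARCHF8 fell. The genes whose profile over the 6 libraries was most like that of B2M were ATP6V1E1, a proton pump subunit (Pearson r = 1.00), STRAP, an RNA-binding scaffold (0.999), and F2RL2, a protease-activated receptor (0.999). These r values are descriptions over 2 separate groups of libraries, and 12.9% of tested genes reached at least 0.95. F2RL2, at 0.245 FPKM in sh-NC and 3.08 FPKM in sh-CLGN, passed the filter through sh-CLGN only.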
